A study of Mus musculus with 4 samples.

Results

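The genes described here are 33 components of the Hippo pathway: the coactivator TAZ (gene symbol Wwtr1), the TEAD and VGLL proteins that work with it on DNA, the kinases that restrain it, and the scaffolds and cadherins that feed into those kinases. They are named by gene symbol with no threshold on measured values, but the list was drawn up with earlier results of these data known. Their mouse Ensembl identifiers were looked up in the GENCODE M21 annotation of the mm10 genome. All 33 were found among the 52636 genes of the table, and all 33 passed the filter on low values, a mean of at least 10 normalized counts. RNA was sequenced from the whole lung of mouse embryos of strain C57BL/6, taken on embryonic day 14.5, when the airway tree is still branching. The control group (n = 2) is labelled wild type, and the other group (n = 2) is labelled a Yap conditional knockout (Yap CKO), which the series title places in the epithelium. The Cre driver and the deleted part of Yap are not given in the sources used here. A whole-lung library also holds mesenchyme, vessels and blood, in which the labels claim no deletion. Nothing in the labels says whether samples of a group came from separate embryos. The p-values therefore reflect the scatter of these samples alone, which may be technical between the knockouts. The controls differ in sex-linked expression, as given below.

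In the Hippo pathway the kinases MST1 and MST2 activate the kinases LATS1 and LATS2, which phosphorylate the coactivators YAP and TAZ and keep them out of the nucleus. Unphosphorylated YAP and TAZ enter the nucleus and bind TEAD transcription factors, which carry them to growth and adhesion genes. Several inhibitors of the pathway's output are themselves YAP and TAZ targets, among them LATS2, AMOTL2 and PTPN14, a known negative feedback. In the developing lung, YAP in the epithelium is known for its part in the patterning and growth of the airways.

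Depth was similar in all libraries, from 17756301 to 21333878 reads counted to genes. Where a pair of values is given for a group, library 1 comes first and library 2 second. The targeted gene, Yap1, had 5686 and 3467 normalized counts in the controls against 3209 and 4483 in the knockouts. Those groups overlapped, so this gene does not check the labels in a mixed tissue. Xist, which silences an X chromosome in female cells, had 42.6 normalized counts in control 1 but 42729 to 50045 in the other libraries. Ddx3y, a gene of the Y chromosome, had 1726 in control 1, 16.4 in control 2, and 5.77 and 13.05 in the knockouts. Control 1 thus differs from the rest in sex-linked expression, and the controls were not repeats of the same material. The 15 heart muscle markers summed to 727 and 36212 in the controls and to 9203 and 1459 in the knockouts, so control 2 held by far the most. The 26 lung epithelial markers summed to 32005 and 29192 in control and to 27803 and 28561 in Yap CKO, with none at 0 in any library. Of the 26, 11 lay below control in both knockouts (42.3%, against 25.6% of all tested genes) and 7 above it (26.9%, against 25.2%). The 10 smooth muscle markers summed to 23037 and 25511 in control and to 9554 and 13203 in Yap CKO, and all 10 lay lower in both Yap CKO libraries. What part these markers' levels have in the results on the Hippo genes was not tested. In bulk RNA, fewer cells of a type and less RNA per cell cannot be told apart.

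One gene of the 33 passed the test. Wwc1, which encodes the scaffold KIBRA, fell to 54.0% of control, and no member rose. Members were tested in a fit across all 19472 genes above the filter (limma with Benjamini-Hochberg adjustment over all of them, threshold 0.05), in which 2.33% of genes were called. The call of 1 in 33 members, 3.03%, is near that background. Below the threshold the members were mostly on the lower side. Of the 33, 24 had a lower mean log2 value in Yap CKO, where 50.6% of all tested genes did. The median member log2 difference was -0.12, against -0.005 over all genes tested. Both Yap CKO values lay below both control values for 17 members (51.5%), against 25.6% of all tested genes. They lay above both control values for 3 members (9.09%), against 25.2% of genes. The groups overlapped for 13 members and for 9575 of all 19472 genes. An unadjusted p under 0.05 was reached by 13 members (39.4%, against 18.9% of genes). They comprise 11 lower members (33.3%, against 9.52%) and 2 higher ones (6.06%, against 9.34%). These counts describe members that were picked together as one pathway and were not tested as a set.

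**Figure D1:**
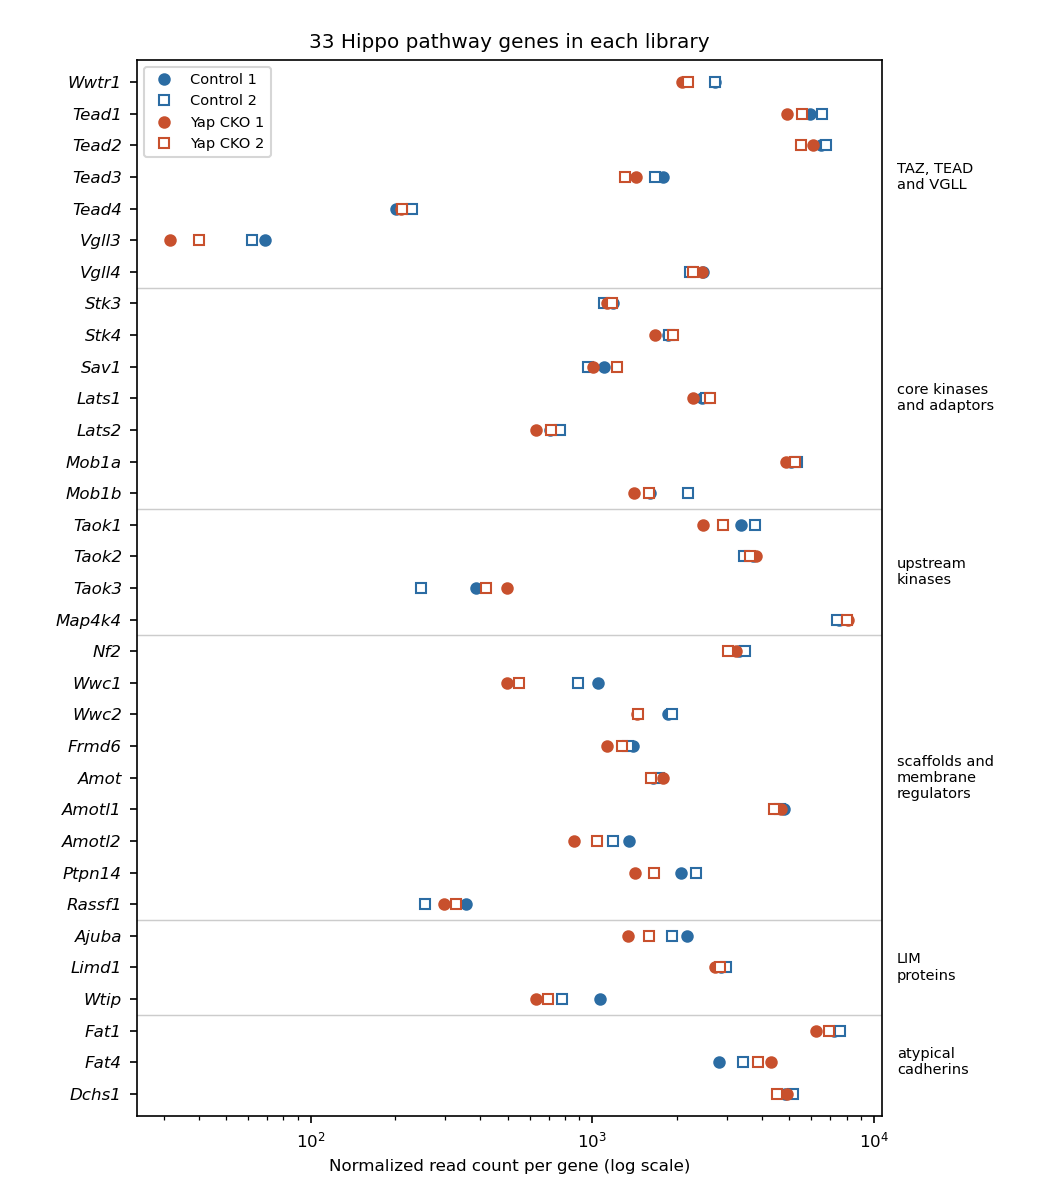
Normalized read counts (horizontal log axis) of the 33 genes in each of the 4 libraries, 1 point per library, ordered by role. The core kinases Stk3, Stk4 and Lats1 overlap between groups, while Wwc1 stands at 1045 and 892 in control and at 498 and 547 in Yap CKO.

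The lower values were uneven across roles. Over all tested genes, the groups were apart on the lower side for 25.6%. Among the 7 genes for TAZ and its DNA-binding partners, they were so for 5 (71.4%). Of the 9 scaffolds and membrane regulators 6 (66.7%) were apart in that way, and so were all 3 LIM proteins. By contrast 6 of the 7 core kinases and their adaptors overlapped between groups, as did 9575 of all 19472 tested genes. These lists are short. No test was made of a difference between roles.

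To show the DNA in front of the genes with the clearest differences, the 250 bases upstream of the transcription start are printed for the 5 members with the smallest p. They come from RefSeq on GRCm38.p6, the assembly also called mm10, 5′ to 3′ on the gene's strand. Capitals mark the letters GGAATG or their reverse complement CATTCC, the core of the element that TEAD proteins are known to bind.
Wwc1 (chr11:35980528-35980777, minus strand): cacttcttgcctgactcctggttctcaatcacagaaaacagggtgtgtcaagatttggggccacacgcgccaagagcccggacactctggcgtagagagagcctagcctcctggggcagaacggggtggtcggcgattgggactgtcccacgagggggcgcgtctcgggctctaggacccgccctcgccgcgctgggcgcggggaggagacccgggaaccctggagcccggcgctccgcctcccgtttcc
Ptpn14 (chr1:189728018-189728267, plus strand): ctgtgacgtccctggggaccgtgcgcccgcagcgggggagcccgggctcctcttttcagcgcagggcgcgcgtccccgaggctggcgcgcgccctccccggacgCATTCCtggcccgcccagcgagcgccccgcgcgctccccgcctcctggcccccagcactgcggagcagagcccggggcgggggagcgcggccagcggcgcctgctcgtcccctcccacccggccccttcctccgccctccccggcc
Wwc2 (chr8:47990545-47990794, minus strand): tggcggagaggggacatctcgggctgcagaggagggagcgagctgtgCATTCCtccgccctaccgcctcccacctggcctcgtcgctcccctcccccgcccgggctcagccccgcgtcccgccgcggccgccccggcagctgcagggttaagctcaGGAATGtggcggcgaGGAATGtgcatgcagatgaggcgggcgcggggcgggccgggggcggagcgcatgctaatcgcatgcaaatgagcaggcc
Ajuba (chr14:54577662-54577911, minus strand): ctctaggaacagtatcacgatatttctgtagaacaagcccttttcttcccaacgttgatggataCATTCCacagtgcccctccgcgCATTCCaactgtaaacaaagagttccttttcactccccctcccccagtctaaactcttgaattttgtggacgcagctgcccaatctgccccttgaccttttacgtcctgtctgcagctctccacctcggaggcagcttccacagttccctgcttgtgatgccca
Wwtr1 (chr3:57575911-57576160, minus strand): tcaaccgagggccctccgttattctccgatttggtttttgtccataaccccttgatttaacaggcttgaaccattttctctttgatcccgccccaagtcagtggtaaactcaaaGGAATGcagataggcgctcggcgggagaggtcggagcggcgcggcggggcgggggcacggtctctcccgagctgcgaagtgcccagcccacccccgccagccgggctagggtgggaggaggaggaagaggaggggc
Wwc2 holds 3 matches, Ajuba 2, Ptpn14 and Wwtr1 1 each, and Wwc1 none. The Ajuba window is that of the RefSeq start, which lies outside the GENCODE M21 gene. The Wwc2 window lies inside the GENCODE M21 gene, which begins at 47990924, so its 3 matches are downstream of that start. Wwtr1 has a second RefSeq window that overlaps the one printed and holds the same match.

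Across the pathway the motif was more common than in promoters at large. RefSeq windows were found for 27 of the 33 members, and 12 of them (44.4%) held at least 1 match on either strand. Over all 27025 genes with such a window the share was 14.4%, or 3880 genes. Among the members with an unadjusted p under 0.05 on the lower side, 8 of the 10 with a window held a match, namely Wwtr1, Tead3, Vgll3, Wwc2, Amotl2, Ptpn14, Ajuba and Wtip. Wtip, with 4 matches, held the most. Neither Fat4 nor Taok3, the 2 members with such a p on the higher side, held one. Among the remaining 15 members with a window 4 held a match, Vgll4, Sav1, Mob1a and Fat1. Across all other tested genes the shares lay much closer together, at 16.5% on the lower side, 15.1% on the higher side and 12.3% of the rest. The motif and the split were chosen with the expression values known and were not tested. A match is a run of letters and not a measured binding site, and genes with several RefSeq starts had more than 1 chance of a match. Some windows, among them those of Amotl2, Vgll4 and Fat1, lie inside the gene as annotated in GENCODE M21.

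Wwtr1 encodes TAZ, the paralog of Yap that shares its partners and many of its targets. Its normalized counts were 2718 and 2719 in the controls against 2091 and 2182 in the knockouts. Both knockouts lay below both controls, and the libraries of a group were close to each other. The means were 2719 ± 0.47 and 2137 ± 64.3 (SD, n = 2), so Yap CKO stood at 78.6% of control. The log2 difference was -0.35 with a standard error of 0.09 and a 95% interval of -0.56 to -0.14, and it did not pass the adjustment over all genes (adjusted p = 0.103, limma). The gene lies on mm10 chromosome 3, 57455649 to 57575910.

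The TEAD proteins bind DNA and recruit YAP or TAZ. Tead1 was at 5956 and 6521 normalized counts in control and at 4901 and 5544 in Yap CKO. Tead2 was at 6475 and 6752 in control and at 6084 and 5520.1 in Yap CKO. Tead3 was at 1782 and 1665 in control and at 1433.5 and 1304 in Yap CKO. For these 3 genes both knockout libraries lay below both controls. Tead4, with the fewest reads of the family, was at 202 and 229 in control and at 209 and 212 in Yap CKO, so its groups overlapped. None of the 4 passed. The log2 differences were -0.26 for Tead1 (standard error 0.11, adjusted p = 0.258), -0.19 for Tead2 (0.10, adjusted p = 0.35), -0.33 for Tead3 (0.10, adjusted p = 0.148) and -0.03 for Tead4 (0.15, adjusted p = 0.933), all by limma. The 95% interval of Tead4, -0.40 to 0.34, is wide enough to hold the values of the other 3.

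VGLL proteins have no DNA-binding domain and compete with or stand in for YAP and TAZ on TEADs. Vgll3 stood at 68.8 and 62.0 normalized counts in control and at 31.7 and 40.1 in Yap CKO. The groups were well apart, with Yap CKO at 54.9% of control, but at this low level the estimate was loose. The log2 difference was -0.85 with a standard error of 0.27 and did not pass (adjusted p = 0.162, limma). Vgll4, which represses TEAD output, stood at 2465 and 2224 in control and at 2449 and 2272 in Yap CKO. Its log2 difference of 0.01 had a 95% interval of -0.23 to 0.25.

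The core kinase module showed the most overlap between groups, in 6 of its 7 genes. Stk4 and Stk3 encode MST1 and MST2, Sav1 their scaffold, Lats1 and Lats2 the kinases that phosphorylate YAP and TAZ, and Mob1a and Mob1b the LATS activators. Stk3 was at 1180.3 and 1100.4 normalized counts in control and at 1124 and 1172 in Yap CKO. Lats1 was at 2452 and 2529 in control and at 2283 and 2616.5 in Yap CKO. Both genes had group means within a few percent of each other, at 100.7% and 98.4% of control. The 95% intervals of their log2 differences were -0.22 to 0.24 and -0.27 to 0.22.

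Lats2, itself a known YAP target, was at 709 and 768 in control and at 631 and 716 in Yap CKO, with a log2 difference of -0.14 (adjusted p = 0.588, limma). Stk4 stood at 96.6%, Sav1 at 107.8% and Mob1a at 97.0% of control, all with overlapping groups. Mob1b was the exception to the overlap, at 1604 and 2190.3 in control and at 1401 and 1593 in Yap CKO. Control 2 stood far above the other libraries for this gene, and control 1 lay just above Yap CKO 2. Its log2 difference of -0.33 did not pass (adjusted p = 0.335, limma) and lay between -0.55 without control 1 and -0.10 without control 2. Mob1a and Mob1b encode nearly identical proteins, and reads shared by both could have been assigned to either.

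The upstream kinases lay on no common side of control. TAO kinases phosphorylate MST kinases, and MAP4K4 acts on LATS beside them. Taok1 was at 3379 and 3779.5 normalized counts in control and at 2476 and 2903 in Yap CKO. Both knockouts lay below both controls, at 75.1% on average, with a log2 difference of -0.41 (standard error 0.11, adjusted p = 0.127, limma). Taok3, with fewer reads, was at 388 and 246 in control and at 499 and 420.4 in Yap CKO. It lay on the other side, at 145.2% of control (log2 difference 0.57, standard error 0.23, adjusted p = 0.248, limma). The controls differed widely for Taok3, and its difference was 0.90 without control 1 and 0.24 without control 2. Taok2 stood at 3728 and 3446 in control and at 3819 and 3620.4 in Yap CKO, with overlapping groups. Map4k4, at 7549 and 7409 in control and 8103 and 8014.5 in Yap CKO, was higher in both knockouts by a small amount (107.7% of control, log2 difference 0.11, 95% interval -0.10 to 0.32).

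The scaffolds held the single call. KIBRA, the product of Wwc1, joins Merlin and LATS at the cell cortex and is found in epithelial cells among others. The gene spans 35838400 to 35980527 on mm10 chromosome 11. Normalized counts of Wwc1 were 1045 and 892 in the controls against 498 and 547 in the knockouts. Both knockouts lay far below both controls, with a gap larger than the spread within either group. It fell by 0.89 on the log2 scale (standard error 0.12, 95% interval -1.18 to -0.59, adjusted p = 0.0245, limma). The summed epithelial markers given above were also lower in both knockouts, by a smaller margin. Of those 26 markers limma called 4, where it called 2.33% of all tested genes, and they lay on both sides of control. Cldn4, a claudin of tight junctions, fell to 46.9% of control (adjusted p = 0.0146, limma) and Prss8, a membrane serine protease, to 59.6% (0.0291). The genes of the ETS factors Ehf and Elf5 rose, to 710% (adjusted p = 0.00559, limma) and 185% (0.0251). Epcam and Cdh1, which mark epithelium broadly, stood at 107.8% and 81.8% and were not called. The call of Wwc1 held with edgeR (adjusted p = 0.0266) and DESeq2 (6.12e-06). It ended without the filter (0.0808), without the intensity trend (0.119), without Yap CKO 1 (0.311) and without Yap CKO 2 (0.178).

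Wwc2, the KIBRA paralog, stood at 1862.5 and 1914 normalized counts in control and at 1441 and 1457 in Yap CKO. The 2 libraries of each group nearly coincided and the groups were apart, at 76.7% of control. Its log2 difference was -0.38 (standard error 0.09, adjusted p = 0.0874, limma). Ptpn14, a tyrosine phosphatase that holds YAP in the cytoplasm, stood at 2070 and 2339 in control and at 1423 and 1661 in Yap CKO, 69.95% on average. This was the second smallest p of the 33 (log2 difference -0.52, standard error 0.12, adjusted p = 0.0835, limma). An annotated transcript on the opposite strand, Gm26574, overlaps exons of Ptpn14, and Cldn22 overlaps those of Wwc2 in the same manner. Without a known strand setting their reads cannot be told apart.

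Angiomotins bind YAP and LATS at tight junctions and on actin. Of the 3 only Amotl2, a known YAP target, had groups that did not overlap. It was at 1348 and 1182 normalized counts in control and at 861 and 1040.3 in Yap CKO (75.2%, log2 difference -0.41, standard error 0.13, adjusted p = 0.162, limma). Amot, the only member on the X chromosome, was at 1644.5 and 1721 in control and at 1786 and 1618 in Yap CKO. Control 1, which lacked Xist, did not stand apart for Amot. Amotl1 was at 4437 to 4800 normalized counts, with overlapping groups. Merlin, encoded by Nf2, recruits LATS to the membrane and was at 3330 and 3498 in control and at 3227 and 3038 in Yap CKO (log2 difference -0.12, adjusted p = 0.515, limma). Frmd6, a related membrane protein gene, lay at 87.5% of control with groups apart. Rassf1, an MST adaptor, ranged from 254 to 355 with overlapping groups, and both extremes were controls.

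The LIM proteins AJUBA, LIMD1 and WTIP bind LATS at junctions and hold it inactive. Ajuba was at 2167 and 1925 normalized counts in control and at 1338 and 1584 in Yap CKO. Each knockout lay well below each control, at 71.4% on average (log2 difference -0.49, standard error 0.12, adjusted p = 0.10, limma). Wtip was at 1066 and 781 in control and at 633 and 696 in Yap CKO. Control 1 stood apart on the high side for Wtip, and the log2 difference of -0.46 (standard error 0.16, adjusted p = 0.203, limma) was -0.23 without it. Limd1 was at 2864.5 and 2988 in control and at 2739 and 2831 in Yap CKO, apart by a narrow margin (95.2% of control).

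FAT and Dachsous proteins are giant cadherins that signal between neighbouring cells, with DCHS1 as the ligand of FAT4. Fat4 lay on the higher side, at 2822 and 3436 normalized counts in control and at 4303 and 3867 in Yap CKO. Its groups did not overlap, with Yap CKO at 130.6% of control (log2 difference 0.39, standard error 0.12, adjusted p = 0.165, limma). Fat1 lay on the lower side, at 7206 and 7608 in control and at 6238 and 6914.5 in Yap CKO (88.8%, log2 difference -0.17, adjusted p = 0.407, limma). Dchs1 stood at 4831 and 5161 in control and at 4912 and 4525 in Yap CKO, with overlapping groups. Annotated genes on the opposite strand overlap exons of Fat1, Fat4 and Dchs1.

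**Figure D2:**
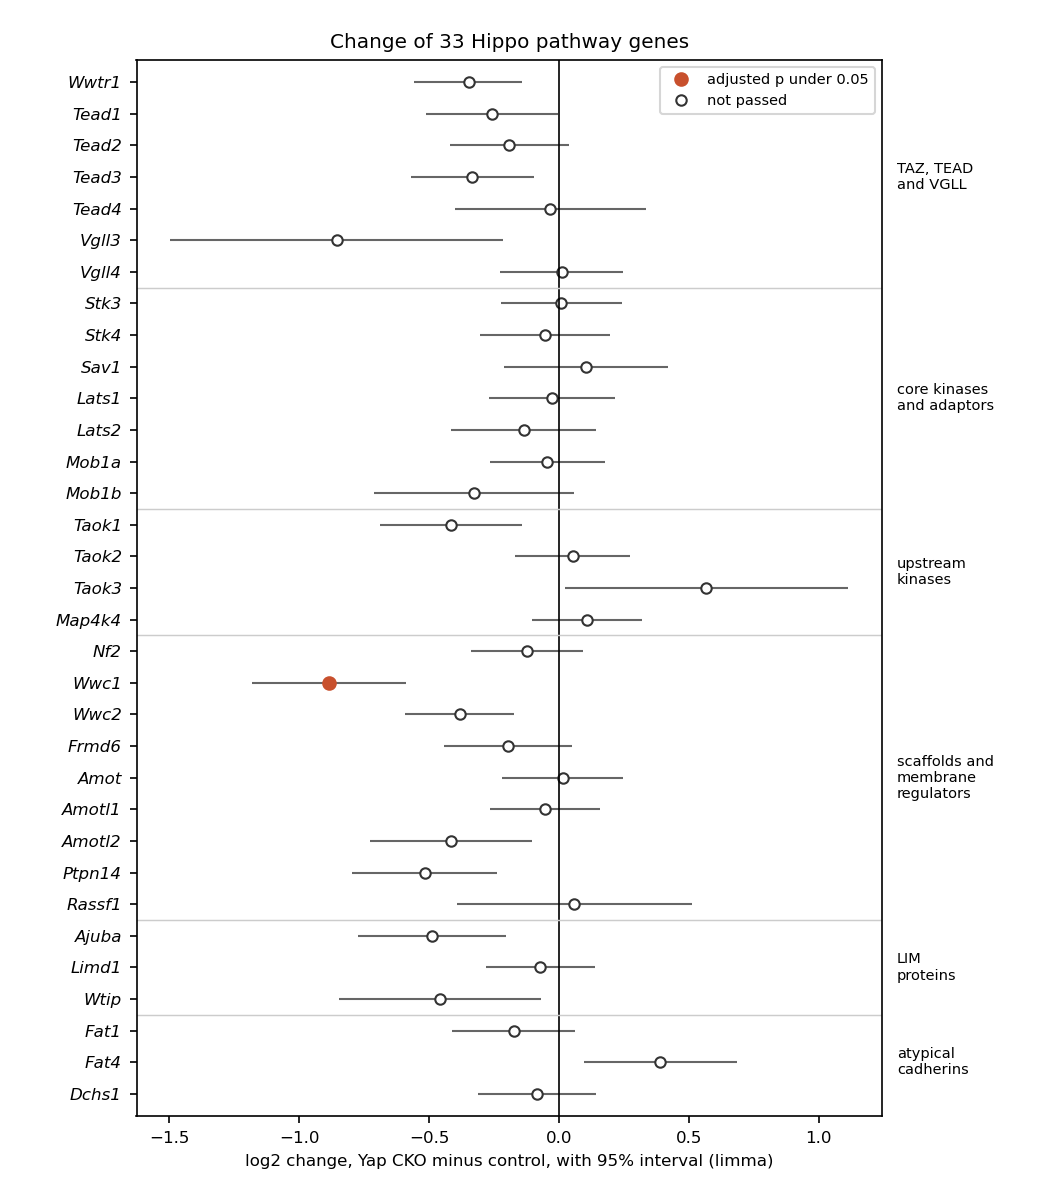
Horizontal axis, log2 change as Yap CKO minus control for the 33 genes, with 95% intervals from limma, filled where the adjusted p was under 0.05. Wwc1 at -0.89 is the only filled point, and the intervals of the core kinases from Stk3 to Mob1b all include 0.

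To compare levels between paralogs, counts were divided by the length of each gene's exons, and each gene's share of its family was taken in every library. On this scale of normalized counts per kilobase, Tead2 was the most abundant member in control (1381) and Vgll3 the least (9.21). Tead2 made up 64.0% of TEAD transcripts in both controls, and 66.8% and 63.5% in Yap CKO 1 and 2. Tead1 followed at 20.8% and 21.8% in control and at 19.0% and 22.5% in Yap CKO. Tead3 held 10.7% to 12.6% and Tead4 2.65% to 3.24%. The family thus kept the same order in every library, while its total stood at 86.2% of control.

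The order of TAZ and Yap transcripts depended on the length used for each gene. Wwtr1 held on average 54.2% of their sum in control with the exon length, but 40.9% with that of the longest transcript. With the exon length it held 48.1% and 60.3% in controls 1 and 2 and 55.8% and 48.5% in Yap CKO 1 and 2. The groups overlapped, since Yap1 varied more between libraries of a group than Wwtr1 did. The family sum was 1183 and 943.5 normalized counts per kilobase in control and 784 and 941 in Yap CKO, so Yap CKO 2 was close to control 2.

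In other families some shares did not overlap between groups, though no background rate was computed for shares. Wwc1 held 60.9% and 56.4% of the KIBRA pair in control and 49.0% and 51.1% in Yap CKO, and the pair as a whole stood at 63.4% of control. Taok1 held 38.5% and 43.7% of the TAO kinases in control and 30.5% and 35.4% in Yap CKO. Fat1 held 73.7% and 70.8% of its sum with Fat4 in control and 61.4% and 66.2% in Yap CKO. Amotl2 held 24.2% and 22.0% of the angiomotins in control and 16.9% and 20.7% in Yap CKO. In each of these 4 cases both knockouts lay below both controls. Only for Wwc1 was the gap between groups larger than the spread within either group. Such separation was not limited to them. The shares of Lats1, Mob1a, Tead4 and Limd1 were also apart on the higher side, and those of Tead3, Vgll3 and Ajuba on the lower side. With 2 samples against 2 an exact permutation test (two-sided) cannot go below a p of 0.33, so no p is given for shares. The LATS, MST and MOB1 pairs differed by less than 2 percentage points, from 76.3% to 77.7% for Lats1, 37.0% to 38.0% for Stk3 and 89.7% to 91.4% for Mob1a as means of control and Yap CKO. The levels of these shares also depend on the length used. With the longest transcript the mean share in control was 49.5% for Wwc1, 26.8% for Taok1 and 49.3% for Stk3, and Mob1a went from 84.9% to 87.3%, a gap of more than 2 points.

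**Figure D3:**
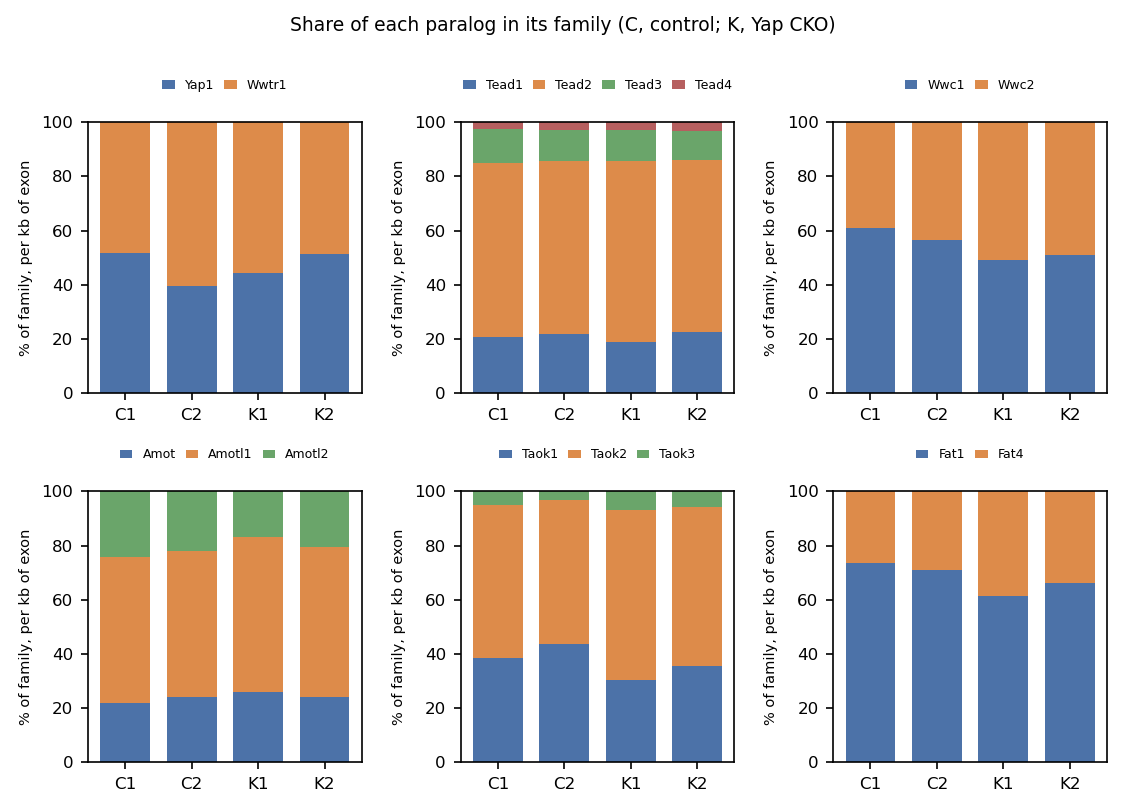
Share of each paralog in its family (percent of normalized counts per kilobase of exon, vertical axis) in controls 1 and 2 (C1, C2) and Yap CKO 1 and 2 (K1, K2), for 6 families, 1 stacked bar per library. The TEAD bars look alike in all libraries, while the Wwc1 segment takes 60.9% and 56.4% in control and 49.0% and 51.1% in Yap CKO.

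Other genes of the pathway were listed by name with earlier results of these data known. The data hold 76 such genes, of which 73 passed the filter, and none was called by limma. There were 18 with an unadjusted p under 0.05 (24.7%, against 18.9% of all tested genes). Of the 73, edgeR called 0, where it called 2.07% of all genes, and DESeq2 called 4 (5.48%, against 5.33%). Their median log2 difference was 0.004, against -0.12 for the 33 members. The lists inside this group differed in sign. Of 18 polarity and junction genes 11 (61.1%) lay below control in both knockouts and 1 (5.56%) above it, with a median of -0.17. Over all tested genes these shares were 25.6% and 25.2%. The polarity genes with the smallest p were Pard6b, a partner of atypical protein kinase C (492 and 429 normalized counts in control, 304 and 296 in Yap CKO), and Llgl2 (655 and 551 in control, 389 and 425 in Yap CKO). Neither passed (adjusted p = 0.0763 and 0.0956, limma). Of 17 further Hippo-like kinases and RASSF adaptors 8 (47.1%) lay above control in both knockouts and 2 (11.8%) below it, with a median of 0.10. The 18 genes of the STRIPAK phosphatase and other antagonists had 4 below (22.2%) and 6 above (33.3%). The 13 genes for retention and turnover of YAP and TAZ had 3 below (23.1%) and 2 above (15.4%).

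YAP and TAZ target genes that are not among the 33 numbered 20, and 1 of them was called, where 2.33% of all tested genes were. Tgfb2, a growth factor gene, fell from 3896 and 4303 normalized counts in control to 2742 and 2910.1 in Yap CKO (log2 change -0.54, standard error 0.10, adjusted p = 0.0481, limma). That call did not hold with edgeR (0.0596) or with values rescaled to equal totals (0.0616), nor without either Yap CKO library. Of the 20, 8 lay below control in both knockouts (40.0%, against 25.6% of all tested genes) and 2 above it (against 25.2%). Dock5, one of those above, stood at 445 and 572 in control and at 762 and 787 in Yap CKO (adjusted p = 0.0908, limma). The best-known targets, Ccn1 and Ccn2, did not separate the groups. Ccn1 was at 361.5 and 629 in control and 345 and 534 in Yap CKO, and Ccn2 at 211 and 538 in control and 244 and 348 in Yap CKO. Both were highest in control 2. Ankrd1, another listed target, was at 1.94 and 2015 in control and at 338 and 24.2 in Yap CKO, so its groups overlapped as well. A link of these values to the heart muscle marker sums given above was not tested. Ccn1, Ccn2 and Ankrd1 are named here after their values were seen.

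How many members were called depended on the libraries in the fit. DESeq2 on recovered reads called 6 members, all lower (Ajuba, Ptpn14, Taok1, Wwc1, Wwc2 and Wwtr1), where it called 5.33% of all genes. With edgeR the only call was Wwc1, with 2.07% of genes called. Without control 1, 6 members were called, 5 lower and Taok3 higher. Without control 2, 9 members were called, 8 lower and Fat4 higher. In each of these fits 12.6% of all genes were called. The spread then comes from the Yap CKO pair alone, with a median standard deviation of log2 values of 0.098, against 0.14 between the controls. Without Yap CKO 1 no member was called, with 0.0103% of all genes called, and without Yap CKO 2 again none, with 0.0359% called. Wwc1, Wwc2 and Ptpn14 were called both in the fit without control 1 and in that without control 2. All 13 members with an unadjusted p under 0.05 had groups that did not overlap. Leaving out 1 library therefore could not change their direction, and the kept direction is no check.

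**Figure D4:**
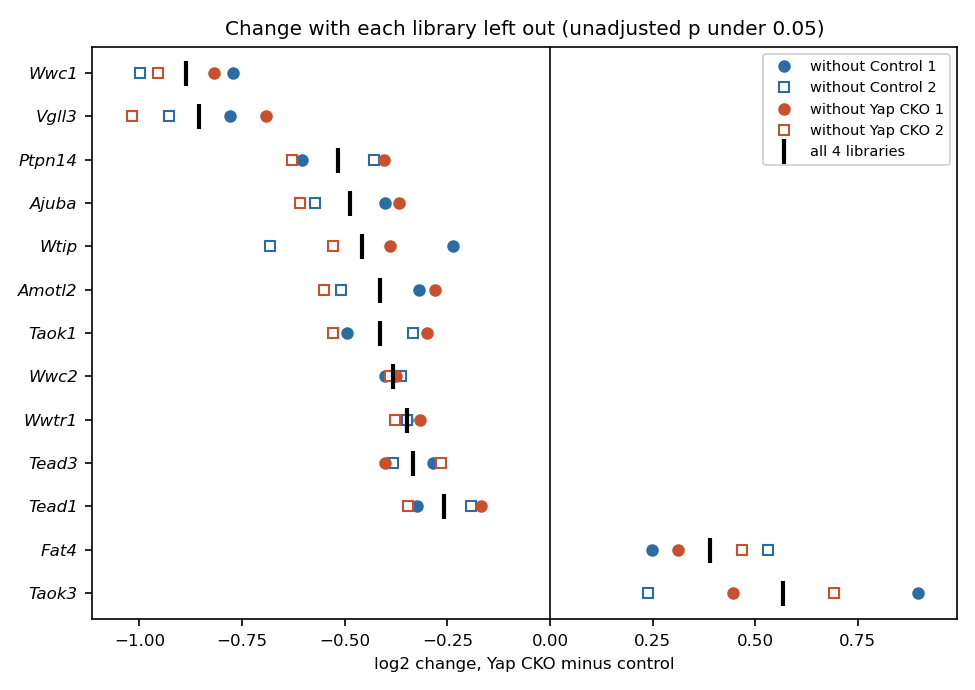
Horizontal axis, log2 change as Yap CKO minus control for the 13 genes with an unadjusted p under 0.05, from all 4 libraries (black bar) and with each library left out (points). Every point stays on its gene's side of 0, which was fixed because the groups of all 13 genes do not overlap. Wwc2 and Wwtr1 move least and Taok3, from 0.24 to 0.90, moves most.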

How the data were processed

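The deposited values are normalized read counts per Ensembl gene, 1 column per library. They are a signal that the authors had scaled to make libraries comparable. Per the submitters' processing notes the tools were featureCounts (1.5.0-p1), Bowtie2 (2.2.9), edgeR (3.18.1) and DESeq (1.16.0), on mm10, with no role given. The annotation release and strand setting are not given in the sources used here. Dividing each library by its smallest value gave whole numbers for 100% of values (within 0.001), and these were used as reads.

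After adding 1, values were put on a log2 scale, which understates changes of low genes. The 19472 genes averaging at least 10 normalized counts were fitted with limma (3.58.1, R 4.3.3), two-sided and with an intensity trend, and adjusted by Benjamini-Hochberg over all of them. Degrees of freedom were 2 from the libraries and 4.54 borrowed across genes. Alternatives were edgeR 4.0.16 (quasi-likelihood) and DESeq2 1.42.0 on recovered reads, other scalings, pseudocounts and filters, a replicate block and each library left out. Scripts were tested on simulated data.

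Symbols, positions and exon lengths came from GENCODE M21 (GRCm38), which matched 52489 of 52636 identifiers. Promoter windows came from RefSeq GRCm38.p6. The members, lists and tests were chosen with earlier results of these data known. Every member is given. Full statistics went to called members, Wwtr1, the Tead genes and the 8 members with the smallest p. Of the other pathway and target genes, those called and up to 4 with the smallest p are named. Ccn1, Ccn2, Ankrd1 and single markers were added later.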

Additional observations from a re-analysis of the deposited data

How the results depend on the processing

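Over 15 alternatives per gene, 22 of the 33 members kept the sign of their log2 difference in all and 11 changed it in at least 1. The count of 22 is no check of direction. The other filters, the fit without the trend and the replicate block leave the difference itself unchanged. Where groups do not overlap, leaving out 1 library cannot change the sign. With values rescaled to equal totals, which moves the median of all genes by 0.06, 5 near-zero members changed sign: Tead4 (0.029), Stk4 (0.009), Lats1 (0.035), Mob1a (0.017) and Amotl1 (0.008). With each library left out in turn the differences that crossed 0 ran from -0.125 to 0.06 for Tead4, -0.064 to 0.085 for Vgll4, -0.041 to 0.06 for Stk3, -0.16 to 0.053 for Stk4, -0.036 to 0.244 for Sav1, -0.125 to 0.071 for Lats1, -0.094 to 0.005 for Mob1a, -0.004 to 0.11 for Taok2, -0.056 to 0.086 for Amot and -0.181 to 0.3 for Rassf1. None of these members was called.

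The number of members called was 0 without the filter and without the trend, 6 with DESeq2, and 0 to 9 with a library left out. For Wwc1 the log2 change was -0.886 in both of those first settings, where its call ended, and -0.999 to -0.772 with a library left out. Counts over all genes were 56 without the filter, 6 without the trend, 1037 with DESeq2 and 2 to 2459 with a library left out, against 454. Among other pathway genes and targets the count was 1. It was 0 under equal totals and median ratio scaling, without the filter or the trend, and with edgeR, 7 with DESeq2, and 0 to 16 with a library left out. Members whose Yap CKO values all lay above control numbered 3, and 4 to 8 with a library left out. Fewer values then have to be apart, so this count could not fall and its rise is no result. The median member difference stayed between -0.16 and -0.062. The causes were not tested.

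Same-numbered libraries deviated in opposite directions (correlation -0.364), so the numbers were not taken to pair them. With the replicate number as a block 342 genes, 1 member (Wwc1) and 0 other pathway genes and targets were called. With the crossed block, chosen after seeing the data, the counts were 972, 3 and 3. With the longest transcript in place of the exon union, the levels of many paralog shares changed, including the order of Wwtr1 and Yap1. The difference between groups changed by more than the replicate standard deviation for 2 paralogs: that for Taok2 was 3.33 against 5.91 percentage points and that for Vgll3 -0.39 against -0.93.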

Other observations

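Of the 33 members 10 share exon sequence with another annotated gene, 9 of them on the opposite strand only. Beside those named in the report these are Tead2 (Cd37), Sav1 (Atl1), Taok1 (Abhd15) and Rassf1 (Gm9917), and Lats2 overlaps Gm49361 on its own strand.

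Some members below the call threshold varied most in control. The standard deviation of log2 values between the controls was 0.46 for Taok3, 0.34 for Rassf1, 0.32 for Mob1b and 0.32 for Wtip, against a median of 0.14 over all genes tested. Wwtr1 and Stk4 lay at the other end, with standard deviations of 0.00 and 0.005.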
